A study of Homo sapiens with 29 samples.

Results

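The genes described here are 42 interferon-stimulated effector genes, whose products act directly against viruses or modify other proteins during an interferon response. They were taken as a fixed list of names. A probe was found for 40 of the 42 through the RefSeq accession that the arrays give it, out of 22439 genes with a named probe. No probe was matched to SAMD9L or IFI27. Where a gene had several probes, as for 8 members, the probe with the highest mean in the deposited matrix was used. The cells were LHCN-M2, a clonal line of human skeletal muscle myoblasts immortalized with telomerase and CDK4, which fuse into myotubes. They received 20 nM siRNA against ZNF148 (siZNF148), a zinc finger transcription factor, or 20 nM nontargeting siRNA, so every group carries a transfected siRNA and none is untreated. Cultures in growth media were taken at 24 h (subconfluent), 48 h and 96 h (confluent) after knockdown. Cultures in differentiation media were taken at 48 h and 96 h. The paper's transfection protocol changes the media 2 days after transfection in differentiation experiments, so these hours may run from that change. The same hour in both media may therefore not be the same time since transfection. The 29 1-colour arrays form 10 groups of 3, except that the 96 h nontargeting group in growth media had 2.

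Type I interferons are secreted proteins that bind the receptor IFNAR1/IFNAR2 on the same or neighbouring cells, and type III interferons act through IFNLR1. The receptors' kinases activate transcription factors, among them STAT2, which joins IRF9 to bind interferon-stimulated response elements in promoters. Most cell types, muscle cells among them, can mount this response, which is best known as a defence that follows the sensing of viral RNA or DNA. Many effector genes also keep a low constitutive expression.

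All levels below are log2 of the normalized brightness of a gene's probe, and a level of 1 probe is not set against that of another. A change is the difference of group means on the log2 scale, siZNF148 minus nontargeting siRNA, with its standard error (SE) from the limma fit across all 38839 tested probes. A gene was called changed at an adjusted p under 0.05 and more than 2-fold, and "rose", "fell", "higher" and "lower" are used of called genes where a comparison is named. The share of all tested probes called in the same direction is given as the background. Between 41.6% and 56.5% of an array's probes were well above the local background, a mark of detection set by the scanner software, and 32 of the 40 members had that mark on all 29 arrays. ZNF148 itself was lower with its siRNA in all 5 comparisons, by 1.53 to 2.74 on the log2 scale, and the groups did not overlap. Replicates are labelled as biological, and with 2 or 3 of them in a group the precision is limited. In these bulk cultures fewer cells expressing a gene and less RNA per cell cannot be told apart.

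The promoters of the members show what many of them share. RefSeq promoter entries (250 bases before to 50 after the start of transcription, GRCh38.p14) were found for 36 of the 42 genes. They were searched on both strands for the core of an interferon-stimulated response element, which is GAAA, any 2 bases and GAAA. The stretches below surround the matches of the 8 members with the largest rises at 96 h in growth media among those with a match, and of TRIM5 and LGALS3BP, which carry the same letters and were not called there. Each is printed in the direction of the gene, 5′ to 3′, with matched letters in capitals. GAAA appears as TTTC where the match lies on the opposite strand, and runs longer than 10 capitals are overlapping matches. Genes with several annotated starts have a window for each.
BST2 (chr19:17405725-17405774, minus strand): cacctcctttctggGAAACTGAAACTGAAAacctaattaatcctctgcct
RSAD2 (chr2:6877612-6877661, plus strand): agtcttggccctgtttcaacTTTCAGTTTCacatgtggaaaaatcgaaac
MX1 (chr21:41431834-41431883, plus strand): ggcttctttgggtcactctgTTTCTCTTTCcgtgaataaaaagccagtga
ISG15 (chr1:1013370-1013419, plus strand): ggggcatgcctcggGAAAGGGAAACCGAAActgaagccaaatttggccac
IFITM1 (chr11:313980-314029, plus strand): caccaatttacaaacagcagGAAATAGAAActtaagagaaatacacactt
IFIT1 (chr10:89392500-89392549, plus strand): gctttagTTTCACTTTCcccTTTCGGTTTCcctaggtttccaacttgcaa
IFI6 (chr1:27672256-27672309, minus strand): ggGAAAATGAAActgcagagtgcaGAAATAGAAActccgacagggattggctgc
IFIT3 (chr10:89327855-89327904, plus strand): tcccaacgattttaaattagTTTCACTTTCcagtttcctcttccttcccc
TRIM5 (chr11:5685075-5685121, minus strand): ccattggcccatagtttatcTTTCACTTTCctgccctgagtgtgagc
LGALS3BP (chr17:78979952-78980001, minus strand): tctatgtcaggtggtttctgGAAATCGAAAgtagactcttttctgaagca

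The response element core was present in 28 of the 36 members with a promoter entry, against 4.38% of 27305 genes with an entry (3.57% of 35116 promoters). The gamma-activated site TTCNNNGAA, which can overlap the response element as it does in BST2, MX1 and IFITM1, was present in 10 of the 36 members and in 9.38% of all genes. GGGCGG, the GC box bound by SP1 and related zinc finger factors, was present in 17 of the 36 members and in 48.3% of all genes. PARP9 and DTX3L, which are transcribed in opposite directions, share the same match. Members with the response element core had a median change of 3.05 at 96 h in growth media (27 genes with a probe, 0.51 to 8.05), and the 7 without it had a median of 2.40 (-1.18 to 5.11). These 7 were HERC6, UBE2L6, SP100, SP110, CMPK2, IFI35 and XAF1. A match is a description of letters in this window, and the absence of a match covers only the window searched.

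**Figure D1:**
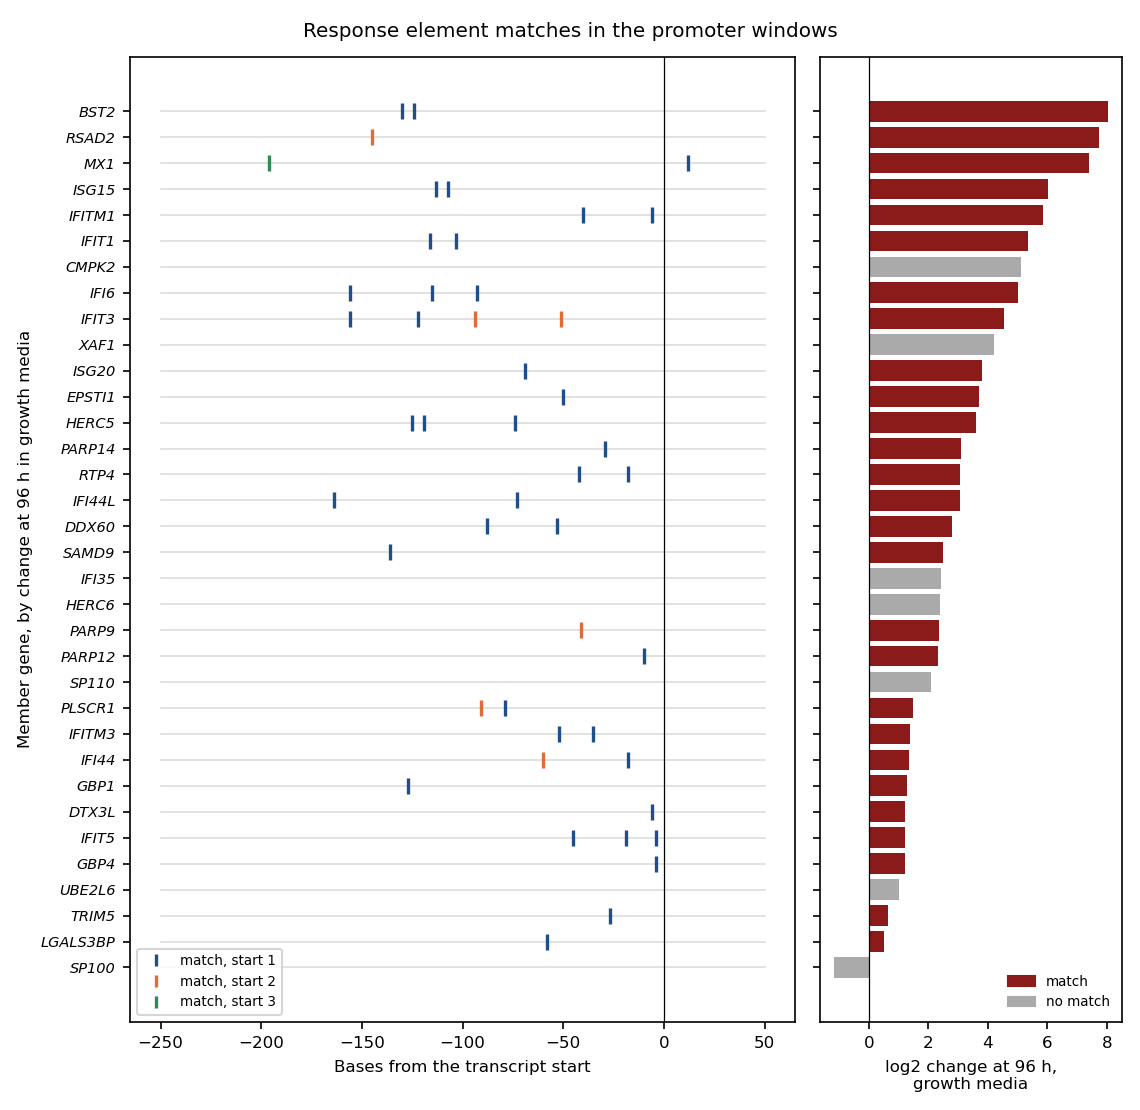
Left, positions of response element core matches in the promoter windows, in bases from the transcript start (x axis, ticks coloured by start), for each member with a promoter entry and a probe (y axis). Right, the log2 change with siZNF148 at 96 h in growth media, red for the 27 genes with a match (0.51 to 8.05) and grey for the 7 without (-1.18 to 5.11).

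Most members rose at 96 h and not before. At 24 h 1 of the 40 members was higher with siZNF148 and 3 were lower, against 1.93% and 2.9% of all tested probes. At 48 h in growth media 8 were higher and 4 lower, against 9.86% and 10.3% of probes. With another background correction (normexp) the split was 1 higher and 0 lower at 24 h, and 7 higher and 1 lower at 48 h in growth media. At 96 h in growth media 35 of 40 were higher and 1 was lower, against 10.5% and 10.3%, with a median change of 2.64 over the members and -0.02 over all tested probes. In differentiation media 4 were higher and 11 lower at 48 h (background 13.2% and 14.9%), and 27 were higher and 1 lower at 96 h (9.24% and 11.5%). The median change of the members was -0.16 at 24 h, -0.26 at 48 h in growth media, -0.52 at 48 h in differentiation media and 1.54 at 96 h in differentiation media. All arrays of the groups lay apart for 40 of 40 members at 96 h in growth media, 38 of them with every siZNF148 array above every nontargeting array, and for 36 at 96 h in differentiation media, 33 of them above. At 24 h the groups overlapped for 19 of the 40. No share of all tested probes is given for groups lying apart, so these counts have no background beside them.

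**Figure D2:**
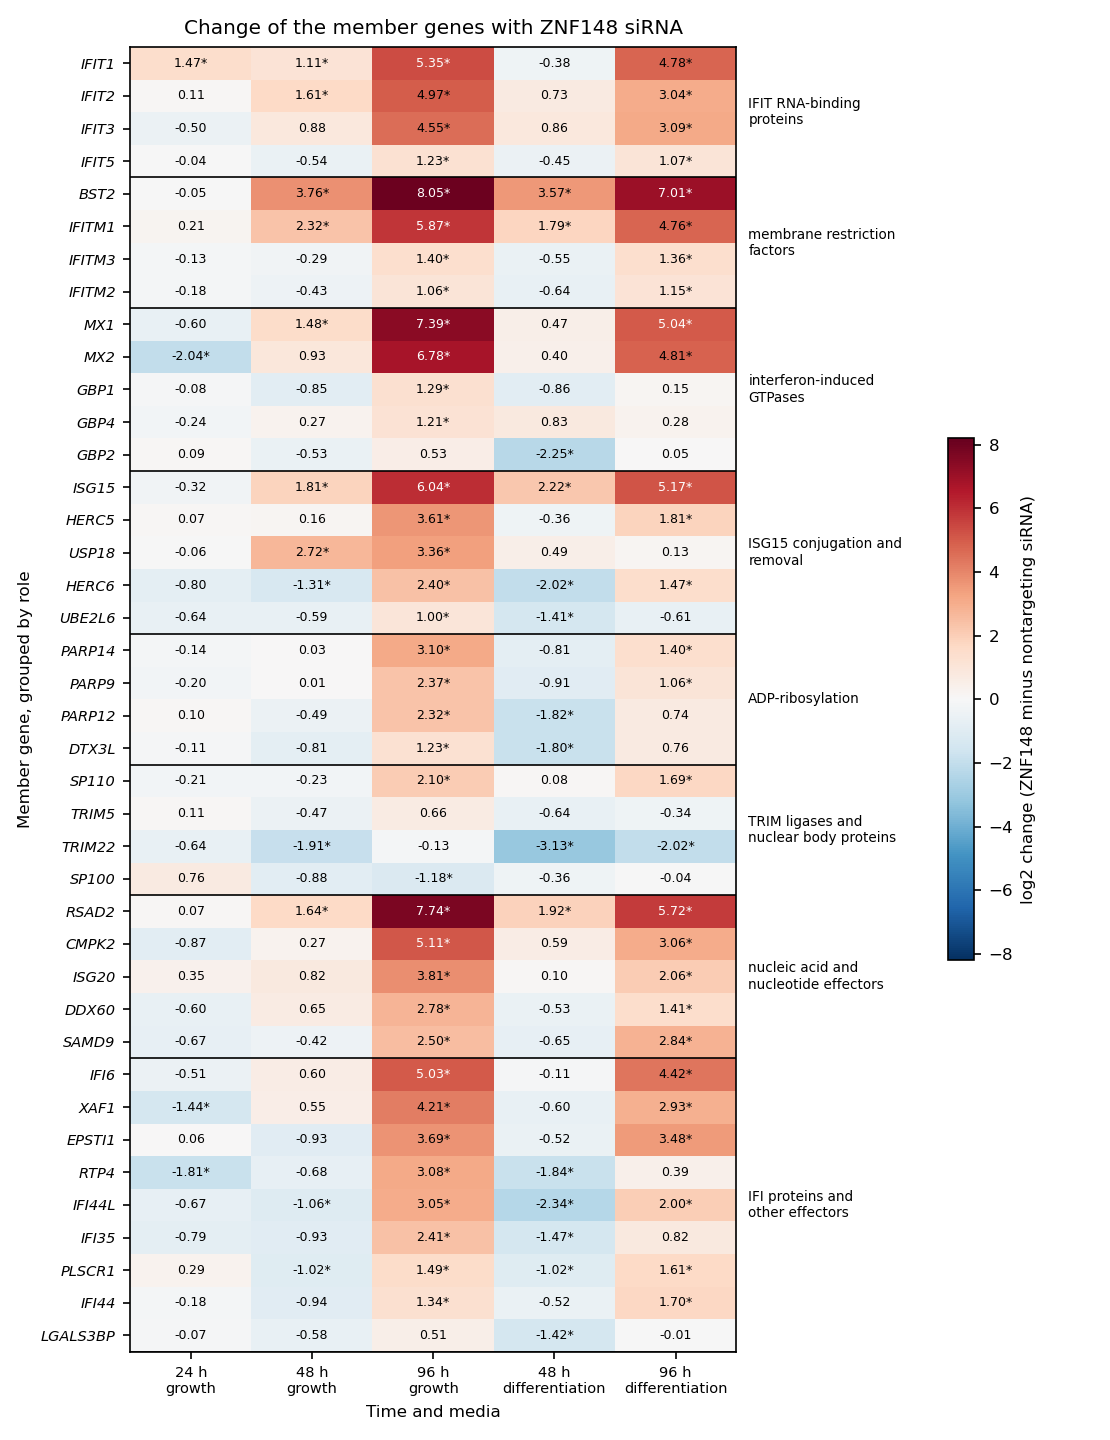
Log2 change with siZNF148 (colour and number) of the 40 members with a probe (y axis, grouped by role) at each time and media (x axis), where a star marks a called change. Most cells of both 96 h columns are red, up to 8.05 for BST2 (6.25 with normexp), while the 24 h and 48 h columns hold changes of both signs.

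The IFIT proteins bind viral RNA and block its translation. All 4 rose at 96 h in both media, by 1.23 to 5.35 in growth media and by 1.07 to 4.78 in differentiation media. IFIT1, which binds RNA with an incomplete cap, was the 1 member already higher at 24 h. Its log2 signal was 11.61, 11.78 and 11.63 with nontargeting siRNA and 13.12, 13.19 and 13.13 with siZNF148, a change of 1.47 (SE 0.14, adjusted p = 6.81e-08). The lowest siZNF148 array thus lay more than 1 log2 unit above the highest nontargeting array. The IFIT1 log2 signals at 96 h in growth media were 11.71 and 11.71 with nontargeting siRNA, and 17.21, 17.11 and 16.87 with siZNF148 (40.9-fold, adjusted p = 3.93e-16). In differentiation media at that time they were 11.51, 11.5 and 11.83 against 16.51, 16.33 and 16.33 (27.4-fold, adjusted p = 2.07e-16). At 48 h the IFIT1 change was 1.11 in growth media (adjusted p = 6.23e-07), not called different from that at 24 h (difference -0.36, adjusted p = 0.176), and -0.38 in differentiation media, which was under 2-fold. IFIT2 was higher from 48 h in growth media, where its log2 signals of 11.41, 11.4 and 11.28 compared with 10.33, 9.47 and 9.46 (change 1.61, SE 0.15, adjusted p = 1.29e-08). IFIT3, a partner that stabilizes IFIT1, was called at 96 h alone, with changes of 4.55 and 3.09 in growth and differentiation media. IFIT5 had the smallest rises of the 4, 2.35-fold and 2.1-fold.

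The membrane restriction factors act at the entry or the release of virus particles. BST2 (tetherin), which holds budding virions at the cell surface, had the largest fitted rise of all members in the 4 comparisons after 24 h, but with normexp its changes were 1.72 and 1.62 at 48 h and 6.25 and 4.93 at 96 h in growth and differentiation media, below those of USP18 (2.48), ISG15 (2.22), MX1 (7.1) and ISG15 (5.19) in that order. At 24 h none of its 6 arrays was well above background. Its log2 signals at 96 h in growth media were 4.75 and 4.9 with nontargeting siRNA and 13.07, 12.85 and 12.71 with siZNF148, a change of 8.05 (SE 0.6, adjusted p = 5.64e-10, 265-fold). BST2 log2 signals at 96 h in differentiation media were 3.91, 4.05 and 4.94 against 11.24, 11.36 and 11.32 (change 7.01, SE 0.54, adjusted p = 5.64e-10). Of the 3 nontargeting arrays there, 2 were well above background. The groups were separated by over 6 log2 units in both media. BST2 was also higher at 48 h, with log2 signals of 7.59, 8.06 and 7.93 against 6.19, 3.1 and 3.01 in growth media (change 3.76, SE 0.54, adjusted p = 5.02e-06). In differentiation media at 48 h its log2 signals were 7.32, 7.75 and 7.31 against 4.61, 3.47 and 3.58 (change 3.57, SE 0.54, adjusted p = 6.69e-06). Only 1 of the 3 nontargeting arrays was well above background for BST2 in each of these comparisons. A further probe of BST2 gave changes of 8.86 and 7.02 at 96 h in growth and differentiation media.

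IFITM1, which blocks the fusion of virus and cell membranes, moved at the same times as BST2. Its log2 signals at 96 h in growth media were 10.14 and 10.21 with nontargeting siRNA and 16.15, 16.05 and 15.95 with siZNF148 (change 5.87, SE 0.34, adjusted p = 1.15e-11). At 48 h in growth media IFITM1 log2 signals were 12.11, 12.12 and 12.14 against 10.72, 9.36 and 9.34 (change 2.32, SE 0.31, adjusted p = 1.6e-06), and at 48 h in differentiation media 11.36, 11.59 and 11.46 against 9.95, 9.67 and 9.41 (change 1.79, SE 0.31, adjusted p = 3.06e-05). IFITM1 was therefore past 2-fold in every comparison after 24 h. IFITM2 and IFITM3, which act in endosomes, rose by 1.06 and 1.4 at 96 h in growth media and by 1.15 and 1.36 in differentiation media, and were not called at 24 h or 48 h. The 3 IFITM genes are near-identical in sequence, and whether their probes tell them apart was not checked.

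**Figure D3:**
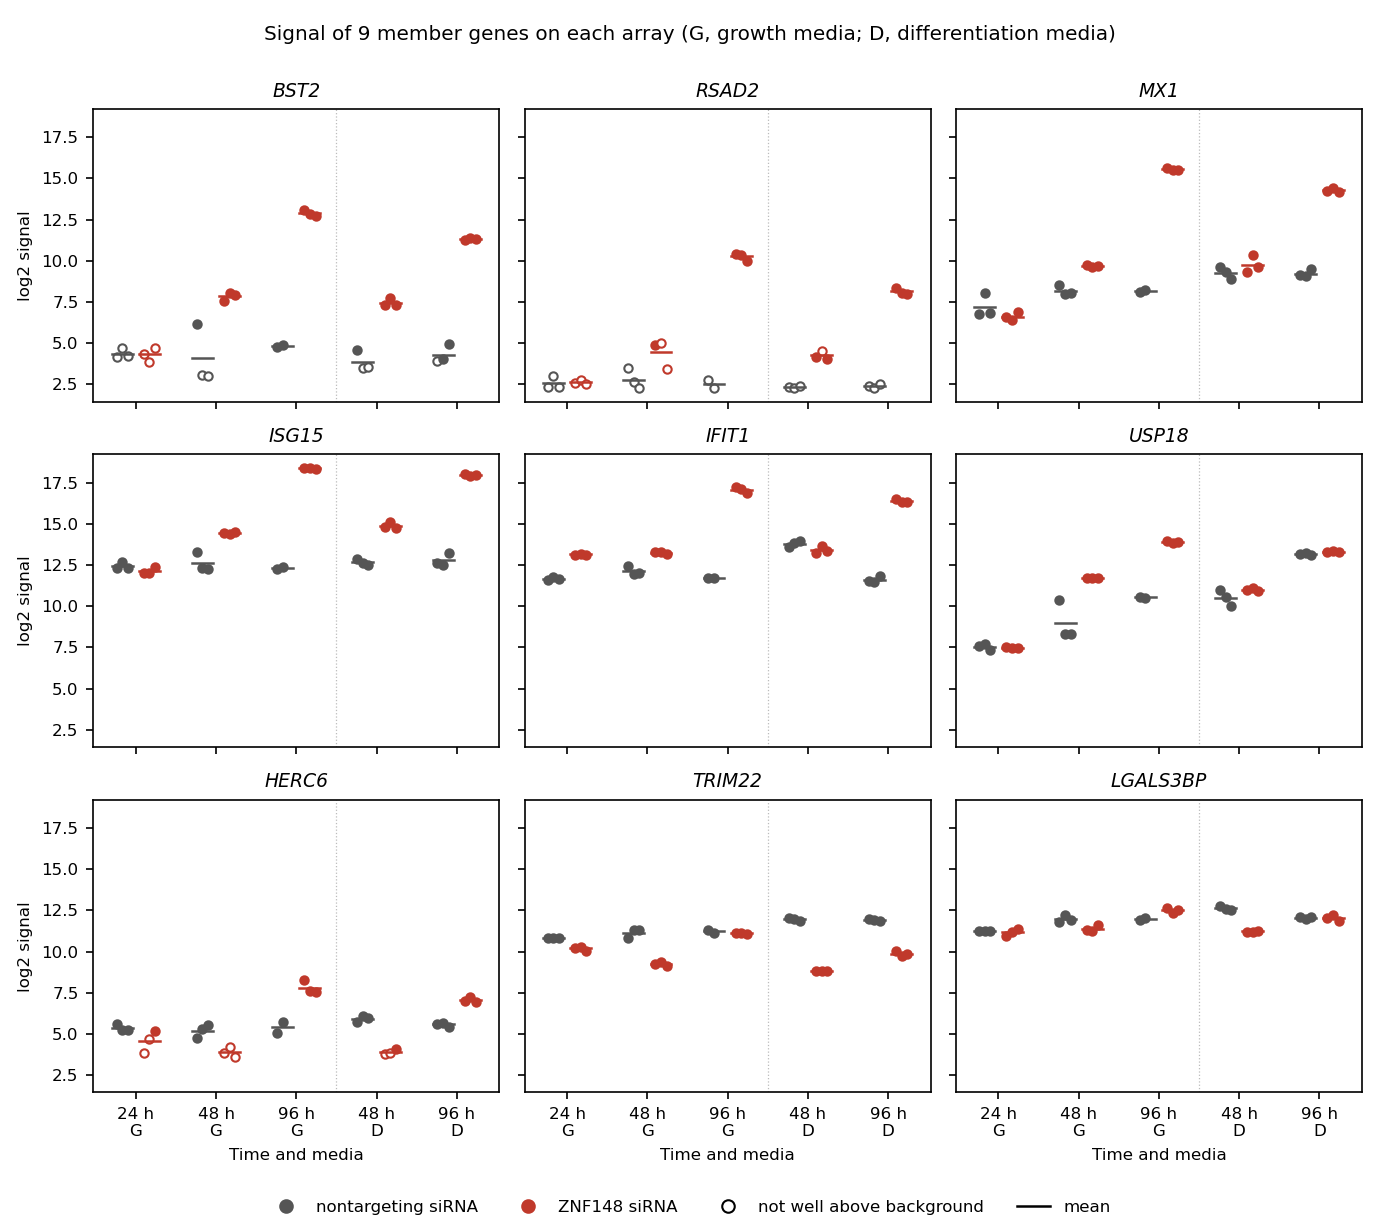
Log2 signal (y axis) of 9 members on each array at each time and media (x axis), nontargeting siRNA in grey and siZNF148 in red, with open circles for arrays not well above background and lines for group means. BST2, RSAD2, MX1, ISG15 and IFIT1 separate most at 96 h, while TRIM22 is lower with siZNF148 at 48 h in both media and at 96 h in differentiation media.

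The interferon-induced GTPases divided by family. MX1 and MX2, dynamin-like proteins that trap viral nucleoproteins and capsids, were among the largest rises at 96 h, where the guanylate-binding proteins GBP1, GBP2 and GBP4 changed by 0.53 to 1.29 in growth media and by 0.05 to 0.28 in differentiation media. MX1 log2 signals at 96 h in growth media were 8.09 and 8.22 with nontargeting siRNA, and 15.64, 15.5 and 15.49 with siZNF148 (change 7.39, SE 0.31, adjusted p = 8.65e-14). MX1 log2 signals in differentiation media at 96 h were 9.15, 9.06 and 9.48 against 14.24, 14.44 and 14.15 (change 5.04, SE 0.28, adjusted p = 3.65e-12). MX1 was also 2.79-fold higher at 48 h in growth media (adjusted p = 0.000138). MX2 started in the other direction. At 24 h its log2 signals were 4.63, 5.09 and 4.18 with nontargeting siRNA and 2.21, 2.18 and 3.37 with siZNF148 (change -2.04, SE 0.32, adjusted p = 5.73e-05), but only 1 of these 6 arrays was well above background, so no fold is given. The MX2 log2 signals at 96 h in growth media were 4.82 and 5.55 against 12.02, 12.01 and 11.85 (change 6.78, SE 0.36, adjusted p = 2.72e-12), with 1 of the 2 nontargeting arrays well above background. In differentiation media they were 4.92, 4.93 and 5.91 against 10.2, 10.08 and 9.9 (change 4.81, SE 0.32, adjusted p = 6.4e-11).

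Among the guanylate-binding proteins, which attack the membranes of intracellular pathogens, GBP1 and GBP4 rose 2.45-fold and 2.31-fold at 96 h in growth media and were not called in any other knockdown comparison. The GBP4 call was lost with normexp (change 0.69). GBP2 was not called there (change 0.53). It fell at 48 h in differentiation media, with log2 signals of 11.95, 11.95 and 12.05 with nontargeting siRNA and 9.79, 9.85 and 9.57 with siZNF148 (change -2.25, SE 0.1, adjusted p = 2.12e-14). The nontargeting arrays of that comparison had the highest GBP2 log2 signals of all 10 groups.

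ISG15 is a ubiquitin-like protein that UBE2L6 and HERC5 attach to other proteins and that USP18 removes. All 5 genes of this group rose at 96 h in growth media and 3 of the 5 in differentiation media. ISG15 log2 signals at 96 h were 12.26 and 12.41 with nontargeting siRNA against 18.4, 18.4 and 18.33 with siZNF148 in growth media (change 6.04, SE 0.24, adjusted p = 3.35e-14), and 12.63, 12.5 and 13.25 against 18.01, 17.92 and 17.95 in differentiation media (change 5.17, SE 0.21, adjusted p = 4.69e-14). At 48 h they were 13.32, 12.34 and 12.24 against 14.44, 14.38 and 14.51 in growth media (change 1.81, SE 0.21, adjusted p = 3.8e-07). In differentiation media at 48 h ISG15 log2 signals were 12.85, 12.64 and 12.52 against 14.83, 15.11 and 14.75 (change 2.22, SE 0.21, adjusted p = 9.93e-09). ISG15, BST2, IFITM1 and RSAD2 were the 4 members higher in all 4 comparisons after 24 h, and no share of all probes with that pattern is given. At 48 h the RSAD2 call was lost in 4 of 21 alternative settings in growth media and 1 of 22 in differentiation media. The BST2 call at 48 h in growth media was lost in 1 of 21.

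The enzymes of the ISG15 group did not share its timing. HERC5, the main ISG15 ligase, was not called at 24 h or 48 h and rose 12.2-fold and 3.51-fold at 96 h in growth and differentiation media. UBE2L6, the conjugating enzyme, was just past 2-fold at 96 h in growth media (change 1, SE 0.13, adjusted p = 9.13e-07), a call lost in 6 alternative settings with changes of 0.91 to 0.98, and fell 2.65-fold at 48 h in differentiation media. HERC6, a relative of HERC5, fell at 48 h and rose at 96 h. Its log2 signals at 48 h were 4.73, 5.28 and 5.56 against 3.82, 4.21 and 3.61 in growth media, where no siZNF148 array was well above background (at least 1.91-fold lower, adjusted p = 0.000452), and 5.73, 6.08 and 5.99 against 3.76, 3.87 and 4.1 in differentiation media (change -2.02, SE 0.28, adjusted p = 1.89e-06). In differentiation media at 48 h, only 1 of the 3 siZNF148 arrays was well above background for HERC6. At 96 h HERC6 was 5.28-fold and 2.78-fold higher in growth and differentiation media. With normexp the HERC6 calls at 48 h in both media and at 96 h in differentiation media were lost (changes -0.41, -0.63 and 0.85).

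USP18, which also restrains receptor signalling, had the largest difference of effect between the media at both 48 h and 96 h. Its log2 signals at 48 h in growth media were 10.35, 8.34 and 8.33 with nontargeting siRNA and 11.7, 11.73 and 11.74 with siZNF148 (change 2.72, SE 0.33, adjusted p = 4.49e-07). USP18 was 10.3-fold higher at 96 h in growth media (adjusted p = 1.26e-07). Its log2 signals at 96 h in differentiation media were 13.19, 13.23 and 13.12 with nontargeting siRNA and 13.3, 13.33 and 13.29 with siZNF148, a change of 0.13 that was not called (SE 0.33, adjusted p = 0.806). The nontargeting arrays had reached the level of the siZNF148 arrays there. USP18 was the 1 member called higher from 48 h to 96 h with nontargeting siRNA in both media, by 1.54 in growth media (adjusted p = 0.0336) and 2.67 in differentiation media (adjusted p = 1.43e-06). USP18 has a close copy in the genome, and whether the probe tells them apart was not checked.

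PARP9, PARP12 and PARP14 transfer ADP-ribose, and DTX3L is the ubiquitin ligase that works with PARP9. None of the 4 was called at 24 h or at 48 h in growth media, and all 4 rose at 96 h in growth media, by 2.37, 2.32, 3.1 and 1.23 in that order. In differentiation media PARP9 and PARP14 rose at 96 h (2.09-fold and 2.63-fold), and PARP12 and DTX3L had changes of 0.74 and 0.76 that stayed under 2-fold. PARP12 and DTX3L fell at 48 h in differentiation media, where 2 PARP9 probes changed by -0.91 and 0.67, both under 2-fold. PARP12 log2 signals there were 10.66, 10.38 and 10.22 with nontargeting siRNA against 8.56, 8.83 and 8.41 with siZNF148 (change -1.82, SE 0.11, adjusted p = 9.21e-12), so each siZNF148 array lay more than 1 log2 unit below each nontargeting array. DTX3L fell 3.48-fold (adjusted p = 9.98e-10).

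TRIM22, TRIM5, SP100 and SP110 are ubiquitin ligases or proteins of nuclear bodies, and this role had the fewest rises: SP110 alone rose at 96 h, 4.29-fold in growth media and 3.23-fold in differentiation media. TRIM22, which restricts several viruses, was the member that fell most. Its log2 signals at 48 h were 10.85, 11.33 and 11.3 with nontargeting siRNA and 9.26, 9.36 and 9.14 with siZNF148 in growth media (change -1.91, SE 0.1, adjusted p = 3.55e-12). In differentiation media they were 12.06, 11.97 and 11.86 against 8.85, 8.85 and 8.8 at 48 h (change -3.13, SE 0.1, adjusted p = 5.32e-16), and 11.97, 11.9 and 11.83 against 10.03, 9.74 and 9.87 at 96 h (change -2.02, SE 0.1, adjusted p = 1.09e-12). TRIM22 log2 signals at 96 h in growth media were 11.31 and 11.14 against 11.14, 11.11 and 11.05, a change of -0.13 that was not called. TRIM5, which binds retroviral capsids, was called in no knockdown comparison (changes -0.64 to 0.66).

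SP100 was the member called lower at 96 h in growth media, and its probes differed. The log2 signals of the probe used were 14.62 and 14.69 with nontargeting siRNA and 13.49, 13.5 and 13.45 with siZNF148 (change -1.18, SE 0.1, adjusted p = 2.86e-09). Both other SP100 probes were not called there (changes 0.21 and -0.34), and the mean of the 3 probes changed by -0.44, under 2-fold. At 48 h both other probes fell past 2-fold, by 1.51 and 1.93 in growth media and by 1.87 and 2.4 in differentiation media, where the probe used changed by -0.88 and -0.36. At 24 h the other probes changed by -0.42 and -0.81 and the probe used by 0.76, all under 2-fold. Directions given below for SP100 are those of the probe used.

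The effectors that act on nucleic acids and nucleotides all rose at 96 h in both media. RSAD2 (viperin), an enzyme that makes a nucleotide analog which stops viral RNA synthesis, was not well above background on any nontargeting array or at 24 h on any array. At 96 h its log2 signals were 2.74 and 2.31 with nontargeting siRNA and 10.42, 10.37 and 10.02 with siZNF148 in growth media (at least 71.3-fold higher, adjusted p = 2.68e-13), and 2.43, 2.29 and 2.55 against 8.37, 8.06 and 7.99 in differentiation media (at least 16.3-fold higher, adjusted p = 3.45e-12). In these bounds a dim array is set at the lowest signal that passed the detection mark there. At 48 h RSAD2 log2 signals were 3.47, 2.62 and 2.29 against 4.9, 4.99 and 3.43 in growth media, with 1 of the 3 siZNF148 arrays well above background (at least 1.18-fold higher, adjusted p = 0.000163). In differentiation media at 48 h they were 2.36, 2.26 and 2.41 against 4.19, 4.54 and 4.06, with 2 of the 3 above (at least 1.23-fold higher, adjusted p = 2.02e-05). With normexp the RSAD2 changes were 4.05 and 2.23 at 96 h in growth and differentiation media, under the bounds given, and both 48 h calls were lost (changes 0.38 and 0.37). CMPK2, the gene next to RSAD2 and a nucleotide kinase, rose 34.5-fold and 8.31-fold at 96 h in growth and differentiation media, with 1 of 2 and 2 of 3 nontargeting arrays well above background. With normexp the CMPK2 changes were 3.15 and 1.41 on the log2 scale, both called. ISG20, an RNA exonuclease, rose 14-fold and 4.16-fold. DDX60, a helicase, rose 6.88-fold and 2.65-fold. SAMD9, which restricts poxviruses, rose 5.65-fold in growth media and 7.16-fold in differentiation media. Except for RSAD2, none of these 5 genes was called at 24 h or 48 h.

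Of the remaining 9 members, 8 rose at 96 h in growth media and 6 in differentiation media. IFI6, a membrane protein of the endoplasmic reticulum, rose most, 32.7-fold and 21.4-fold in growth and differentiation media. XAF1, which antagonizes an inhibitor of apoptosis, rose 18.6-fold and 7.61-fold, and EPSTI1 12.9-fold and 11.1-fold. IFI44 rose by 1.34 and 1.7 and the related IFI44L by 3.05 and 2. PLSCR1, a phospholipid scramblase, rose by 1.49 and 1.61. IFI35 and RTP4 rose 5.32-fold and 8.48-fold in growth media alone, with changes of 0.82 and 0.39 in differentiation media. LGALS3BP, a secreted galectin-binding glycoprotein, was not called at 96 h in either media (0.51 and -0.01).

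The same 9 genes held 2 of the 3 falls at 24 h, 2 of the 4 at 48 h in growth media and 5 of the 11 at 48 h in differentiation media. Of all tested probes, 2.9%, 10.3% and 14.9% were lower in these 3 comparisons. At 24 h XAF1 log2 signals were 5.82, 6.22 and 5.67 with nontargeting siRNA and 4.63, 4.5 and 4.24 with siZNF148, where no array was well above background (at least 1.93-fold lower, adjusted p = 1.12e-06). RTP4 log2 signals at 24 h were 5.15, 4.13 and 4.18 against 2.64, 2.88 and 2.52 (change -1.81, SE 0.23, adjusted p = 4.06e-06), but only 1 of the 6 arrays was well above background and no fold is given. All 3 falls at 24 h, those of MX2, XAF1 and RTP4, were lost with another background correction (changes -0.26, -0.49 and -0.15). IFI44L log2 signals at 48 h in growth media were 10.74, 10.98 and 11.1 against 9.92, 9.92 and 9.78 (change -1.06, SE 0.12, adjusted p = 2.35e-07). PLSCR1 log2 signals were 10.2, 10.26 and 10.64 against 9.46, 9.57 and 9.02 (change -1.02, SE 0.14, adjusted p = 4.4e-06), a call lost in 3 of 21 alternative settings. Both genes lay lower on every siZNF148 array and both were higher at 96 h. IFI44L log2 signals in differentiation media at 48 h were 11.67, 11.87 and 12.12 against 9.41, 9.88 and 9.33 (change -2.34, SE 0.12, adjusted p = 4.68e-13). RTP4 log2 signals there were 8.61, 8.42 and 7.65 against 6.21, 6.53 and 6.43 (change -1.84, SE 0.23, adjusted p = 4.61e-07). IFI35, LGALS3BP and PLSCR1 also fell in that comparison, 2.77-fold, 2.68-fold and 2.03-fold, and the PLSCR1 call was lost in 5 of 22 alternative settings (change down to -0.9). In all, 8 members fell at 48 h in differentiation media and rose at 96 h in growth media (HERC6, UBE2L6, PARP12, DTX3L, IFI35, IFI44L, PLSCR1 and RTP4). Of these, HERC6, UBE2L6 and PLSCR1 each had a call that was lost in alternative settings, as given above. No share of all probes with that pattern is given.

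The change of the knockdown effect with time was tested as a difference of effects in the same fit. In growth media the effect was higher at 96 h than at 24 h for 35 of 40 members and lower for 1, against 10.1% and 9% of probes, and higher at 96 h than at 48 h for 37 and lower for 0, against 2.47% and 1.44%. The exceptions in the latter were GBP4, USP18 and SP100. In differentiation media the effect was higher at 96 h than at 48 h for 35 members and lower for 0, against 6.67% and 7.42%. From 24 h to 48 h in growth media it rose for 13 and fell for 3, against 8.72% and 8.39%. With siZNF148 alone, 39 of 40 members were higher at 96 h than at 48 h in growth media (background 3.47%), and 35 of 40 in differentiation media (3.74%). SP100 was the exception in growth media, with a change of -0.04. With nontargeting siRNA, USP18 was the 1 member higher at 96 h than at 48 h in growth media and 0 were lower (background 0.317% and 0.036%), and from 24 h to 48 h 5 were higher and 0 lower (IFITM1, USP18, PARP14, CMPK2 and RTP4; background 6.38% and 4.93%). With siZNF148, 15 were higher and 4 lower from 24 h to 48 h (14.9% and 14.7%). In differentiation media USP18 was higher and IFIT1, GBP2 and IFI44L were lower at 96 h than at 48 h with nontargeting siRNA, by 2.18, 1.3 and 1.28 for the falls (background 4.7% higher and 3.71% lower). All 24 h arrays were on a slide and scan of their own, so for the levels of arrays at 24 h and later, time and slide cannot be told apart, while each knockdown effect is taken within its own time.

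The rise at 96 h was smaller in differentiation media. The effect was lower in differentiation than in growth media for 21 of 40 members and higher for 1 (SP100, 1.13), a direction that both other SP100 probes did not show (changes 0.21 and -0.34 in growth media against 0.18 and -0.82 in differentiation media), against 6.16% and 4.45% of probes. The largest differences were those of USP18 (-3.23, SE 0.49, adjusted p = 4.16e-05), RTP4 (-2.7, SE 0.34, adjusted p = 5.31e-06) and MX1 (-2.35, SE 0.42, adjusted p = 0.000261), followed by CMPK2, RSAD2, MX2 and IFIT2 (-2.05 to -1.93). BST2, ISG15, IFITM1, IFIT1 and IFI6 had no called difference between the media at 96 h. At 96 h with siZNF148, 20 of 40 members were lower in differentiation than in growth media and 0 higher (background 4% and 1.47%), while with nontargeting siRNA 3 were higher (MX1 1.08, USP18 2.63, RTP4 1.05) and 3 lower (IFITM2 -1.01, SP100 -1.05, SAMD9 -1.19), against 6.25% and 6.73%. With scaling to the 75th percentile the latter split was 3 higher and 5 lower.

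At 48 h the effect was lower in differentiation than in growth media for 9 members and higher for 0, against 7.31% and 6.75% of probes. These were USP18 (-2.22), GBP2 (-1.72), IFIT1 (-1.49), PARP12 (-1.33), IFI44L (-1.28), TRIM22 (-1.22), DDX60 (-1.18), XAF1 (-1.15) and RTP4 (-1.15). The nontargeting arrays moved with this difference. With nontargeting siRNA 7 members were higher in differentiation than in growth media at 48 h and 0 were lower (6.86% and 6.59% of probes), led by IFIT1 (1.65, adjusted p = 2.27e-09), GBP2 (1.6, adjusted p = 1.42e-11) and USP18 (1.5, adjusted p = 0.000736). With siZNF148 no member was called between the media at 48 h by limma, a count near the background of 1.1% higher and 2.1% lower. Without the fold threshold 2 were higher and 11 lower at an adjusted p under 0.05, and 4 and 18 at an unadjusted p under 0.05. No share of all probes is given at these looser thresholds. The comparisons of media share their arrays with the knockdown comparisons.

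**Figure D4:**
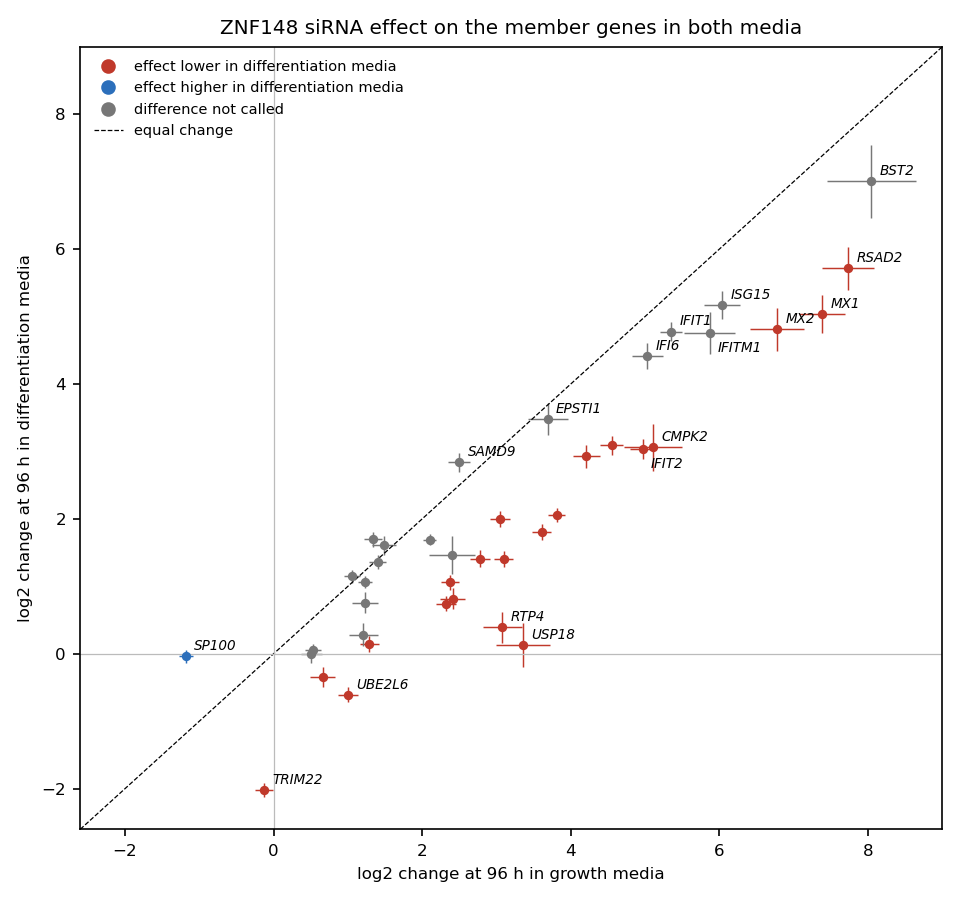
Log2 change with siZNF148 at 96 h in growth media (x axis) and differentiation media (y axis) for the 40 members, with standard errors as bars and a dashed line of equal change. 21 members in red had a lower effect in differentiation media and SP100 in blue a higher one, with the 1 of its 3 probes that showed it.

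Replicate 1 of nontargeting siRNA at 48 h in growth media stood apart from both other arrays of its group. It was over 2-fold above them for 5 members, BST2, USP18, IFITM1, ISG15 and RSAD2, and over 2-fold below for 0. It also carried myotube RNA. The log2 of the summed signals of 12 myotube markers, in which the brightest probes weigh most, was 20.08 against 13.73 and 13.7. MYOG was at 9.42 against 5.92 and 5.76, and MYH2 at 9.52 against 4.37 and 6.45. Without this array 9 members were higher and 8 lower at 48 h in growth media, and all 12 calls made with it were kept. The change of BST2 became 4.81 and that of USP18 3.39. Without replicate 3 of nontargeting siRNA 2 members were lower in that comparison, since IFI44L (-0.98) and PLSCR1 (-0.88) no longer passed 2-fold.

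The comparisons were also made within slides. On slide 4, the slide with arrays of both siRNAs at 96 h in growth media, 38 members were higher and 2 lower, 34 and 1 of them past 2-fold. On slides 2 and 3 at 96 h in differentiation media 35 were higher and 5 lower, 26 and 1 past 2-fold on each slide. These values rest on 1 or 2 arrays per siRNA and were not tested. At 48 h the members divided on each of the 3 slides, 16 to 18 higher in growth media and 11 to 14 higher in differentiation media. No share of all tested probes is given for these counts within slides, so they have no background beside them.

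The genes upstream of the members were taken from lists of ligands, receptors, transcription factors, sensors and negative regulators. Of 21 interferon genes, 17 had a probe and 7 were tested, the others being dim. IFNB1, the type I interferon that most cell types can make, had log2 signals at 96 h in growth media of 2.08 and 2.1 with nontargeting siRNA, below background, and 4.8, 5.66 and 5.53 with siZNF148, all 3 well above it (at least 2.33-fold higher, adjusted p = 1.46e-05). At 24 h and 48 h in growth media no array of either siRNA was above background for IFNB1. The IFNB1 log2 signals at 96 h in differentiation media were 2.17, 2.08 and 2.14 against 4.27, 4.1 and 3.91, but no array was well above background, and at 48 h 1 of 3 siZNF148 arrays was (change 1.1, adjusted p = 0.0455). IFNA2 and IFNE were called at 48 h in growth media (higher and lower) from 1 array well above background each. At 48 h in differentiation media IFNE was lower (at least 2-fold), and at 96 h IFNA2 was (at least 1.37-fold). No other interferon gene was called.

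Receptors moved in opposite directions. IFNAR1 was lower in all 5 comparisons, by 1.69 at 24 h, 2.7 and 2.38 at 48 h and 96 h in growth media and 3.38 and 2.54 in differentiation media. IFNLR1, the type III receptor chain, was not above background at 24 h, and was higher at 96 h in growth media (at least 3.38-fold, adjusted p = 2.24e-05) and at 48 h and 96 h in differentiation media (at least 28.8-fold and 5.07-fold). IFNLR1 log2 signals at 48 h in growth media were 7.55, 7.59 and 7.99 against 5.65, 2.09 and 2.06, where the 5.65 was the replicate 1 described above. IFNAR2 was higher at 96 h in differentiation media (1.02).

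Several transcription factors of this pathway were higher at 96 h. STAT2, IRF9 and IRF7 rose at 96 h in growth media, by 1.5, 1.94 and 5.06, and in differentiation media IRF9, IRF5 and IRF7 rose and IRF1 fell. The log2 signals of IRF7 at 96 h in growth media were 10.46 and 10.57 with nontargeting siRNA and 15.62, 15.59 and 15.52 with siZNF148, so the groups lay far apart. IRF7, which drives interferon genes, was the 1 factor higher at 48 h in growth media (1.74), and its change at 96 h in differentiation media was 3.36. STAT2 and IRF9 fell at 48 h in differentiation media, by 2.04 and 1.13. IRF1 fell there too, by 1.48. At 24 h IRF9 and IRF2 were lower, by 1.14 for IRF9 and at least 1.31-fold for IRF2, which was not well above background with siZNF148.

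RNA sensors and their adaptors were mostly higher at 96 h in growth media, where the background was 10.5% higher and 10.3% lower. Of 14 genes, 10 rose at 96 h in growth media (RIGI, IFIH1, DHX58, TLR3, EIF2AK2, ZBP1, OAS1, OAS2, OAS3 and OASL) and 0 fell. In differentiation media at 96 h 7 rose, ZBP1 fell (-1.32) and 6 were not called, against 9.24% of probes higher and 11.5% lower. RIGI and IFIH1, which detect viral double-stranded RNA, changed by 2.71 and 3.89 in growth media and by 1.12 and 2.72 in differentiation media. OAS1, which makes the activator of RNase L, changed by 5.97 and 4.97. At 24 h 4 sensors or adaptors were lower (DHX58, TICAM1, OAS2 and OASL). At 48 h ZBP1 was higher and TLR3 and TICAM1 were lower in growth media, while OASL was higher and DHX58, TLR3, ADAR and TICAM1 were lower in differentiation media. Of 6 negative regulators, SOCS1 was higher at 24 h (1.69) and at 48 h in differentiation media (1.4) and lower at 96 h in differentiation media (-1.23). TRIM21 rose at 96 h in growth media (1.55) and fell at 48 h in differentiation media (-1.26), and PTPN6 was higher at 48 h in both media and at 96 h in differentiation media (at least 2.6-fold).

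The labelled cell type was checked against marker lists. Of all tested probes, 1.93% were higher and 2.9% lower at 24 h. In the later comparisons 9.24% to 13.2% were higher and 10.3% to 14.9% lower. With such shares, 1 or 2 calls in a list are not read as a change of that cell type. Of 9 myoblast markers, 1 was higher with siZNF148 at 24 h (MYOD1), 5 were higher and 1 lower at 48 h in growth media, and 2 to 3 were higher and 1 to 2 lower in the remaining comparisons. Of 12 myotube markers, 12 were higher at 48 h in both media and at 96 h in growth media, and 6 at 96 h in differentiation media. The log2 of the summed signals of these 12 genes, in which the brightest probes weigh most, was taken for each array. With siZNF148 it was 21 to 21.04 at 48 h and 21.14 to 21.16 at 96 h in growth media, and 8 and 35 members were higher at these times. At 24 h it was 11.06 to 11.15 with nontargeting siRNA and 11.31 to 11.46 with siZNF148. In differentiation media with siZNF148 it was 21.23 to 21.28 at 48 h and 21.39 to 21.44 at 96 h, against 16.22 to 17.41 and 19.35 to 19.56 with nontargeting siRNA. With nontargeting siRNA it was 13.7 to 20.08 at 48 h and 16.15 to 16.17 at 96 h in growth media. The part of the myotube markers in the member values was not tested. Of 4 markers of plasmacytoid dendritic cells, a main source of interferon in blood, CLEC4C and IL3RA were not well above background on any array, and TCF4 was lower at 96 h in differentiation media. Of 6 leukocyte markers with a probe, CD14 and CD74 were lower with siZNF148 at 48 h and 96 h in both media and ITGAM was higher at 48 h in growth media. The log2 of the summed signals of these 6 was 11.82 to 11.9 with nontargeting siRNA and 8.15 to 8.32 with siZNF148 at 96 h in growth media, and 8.4 to 8.49 and 7.55 to 7.84 in differentiation media. Of 5 endothelial markers, KDR was lower at 48 h and 96 h in both media and PECAM1 in all of these but 48 h in growth media, TEK was lower at 48 h in differentiation media, and VWF was higher at 96 h in differentiation media. Of 7 fibroblast markers, DCN and THY1 were lower and MFAP5 was higher with siZNF148 at 48 h and 96 h in both media, LUM was lower at 48 h and COL3A1 at 96 h in differentiation media, and COL3A1 was higher at 24 h. The log2 of the summed signals of the 7 with nontargeting siRNA and siZNF148 was 17.1 to 17.28 against 15.29 to 15.42 at 96 h in growth media, and 16.17 to 16.27 against 14.88 to 15.03 in differentiation media. It was 16.14 to 16.63 against 15.14 to 15.29 at 48 h in growth media, 17.04 to 17.11 against 14.97 to 15.07 at 48 h in differentiation media, and 16.09 to 16.14 against 15.58 to 15.66 at 24 h. The part of these other cell markers in the member values was not tested.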

How the data were processed

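The authors hybridised total RNA of 29 cultures to 1-colour Agilent arrays with 62976 spots and deposited the scanner intensity of each spot, extracted with Feature Extraction 10.7.3.1 per the file headers, of which 14 name hg19 and 15 no build. The deposited log2 matrix, quantile normalized by the authors, was used to choose 1 probe per gene and as an alternative. It has 140 entries that are not probes of these files. Control and outlier spots were left out, spots of a probe were averaged to 58201 probes, and log2 processed signal was quantile normalized over the 29 arrays. The test, by limma 3.58.1 (R 4.3.3) on 10 group means, took in every probe with the detection mark on 2 or more arrays, with Benjamini-Hochberg adjustment over 38839 probes. Comparisons of times, media and effects came from the same fit. RefSeq (GRCh38.p14) named 31104 probes.

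Members and lists were chosen with earlier results of these data known. All members could be named, the called ones with full values for up to 6 in each direction per comparison, and listed pathway genes where called. The result of 1 listed pathway gene is not reported here. The fits were tested on simulated data. Alternatives were the scaling, normexp, the matrix, filters, thresholds, other probes, the t-test of the study's methods, slide and replicate blocks, and leaving out each array. P-values set a difference of means against the spread between arrays of the same group.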

Additional observations from a re-analysis of the deposited data

Results flagged for a closer look

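These results are listed because the knockdown effect differed between times or media by a test of the difference itself, and each was called with limma at the thresholds of the report. Between 96 h and 24 h in growth media the effect differed for 36 members. Among members well above background on every array compared, the largest were 7.99 for MX1, 6.36 for ISG15, 5.67 for IFITM1, 5.54 for IFI6, 5.05 for IFIT3 and 4.86 for IFIT2, all higher at 96 h. MX2 (8.82), BST2 (8.1), RSAD2 (7.67), CMPK2 (5.98), XAF1 (5.66) and RTP4 (4.89) also differed by more than IFIT2. Each of these was not well above background on every 24 h array. SP100 differed by -1.94 with the probe used, but both other SP100 probes moved the opposite way, from -0.42 and -0.81 at 24 h to 0.21 and -0.34 at 96 h.

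Between differentiation and growth media at 48 h the effect differed for 9 members, all with a lower effect in differentiation media. USP18 differed by -2.22, GBP2 by -1.72, IFIT1 by -1.49, PARP12 by -1.33, IFI44L by -1.28 and TRIM22 by -1.22. Hours in differentiation media may count from the media change, and in growth media they count from knockdown. Media and time since transfection therefore cannot be told apart.

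Between the media at 96 h the effect differed for 22 members. CMPK2, RSAD2 and MX2, each not well above background on every 96 h array, differed by more than IFIT2 and are not listed here. USP18 differed by -3.23, RTP4 by -2.7, MX1 by -2.35, IFIT2 by -1.93, TRIM22 by -1.89 and HERC5 by -1.8, and SP100 by 1.13 in the other direction. Neither other SP100 probe showed that direction (0.21 and -0.34 in growth media against 0.18 and -0.82 in differentiation media).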

How the results depend on the processing

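No called change of a member changed sign under the alternatives run, where other probes entered as the mean over the probes of a gene. Taken alone, a further SP100 probe changed by 0.21 at 96 h in growth media, where the called change of the probe used was -1.18. Uncalled changes did change sign, as SP100 at 24 h (0.76, and -0.16 with the mean of its probes). The counts in this section join both directions, and no share of all probes is given beside them. With no fold threshold, members called numbered 15 at 24 h, 35 at 48 h in growth media and 32 at 48 h in differentiation media. The 35 were 14 higher and 21 lower. Also with no fold threshold they numbered 21 for the effect between media at 48 h, and 24 and 19 between media with nontargeting siRNA at 48 h and 96 h. With normexp they numbered 1 at 24 h, and 4 and 2 between media with nontargeting siRNA at 48 h and 96 h. The methods' t-test after Benjamini-Hochberg adjustment gave 4 between media with nontargeting siRNA at 48 h, and did not call the change of BST2 at 48 h in growth media.

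Leaving out 1 array at a time gave 4 to 5 calls at 24 h, 10 to 17 at 48 h and 35 to 36 at 96 h in growth media, and 14 to 16 at 48 h and 28 to 28 at 96 h in differentiation media. It gave 36 to 36 for the effect between 96 h and 24 h, 8 to 13 and 20 to 23 for the effect between media at 48 h and 96 h, and 6 to 8 and 3 to 7 between media with nontargeting siRNA. The lowest of these, 3, was without replicate 1 of nontargeting siRNA at 96 h in growth media.

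Replicate numbers did not pair the arrays: the deviations of same-numbered arrays correlated over 0.1 in 4 of 126 pairs (median -0.01). With the replicate block the calls numbered 4, 12, 36, 15 and 28 in the 5 knockdown comparisons, the same counts as without it. With slide as a fixed block, chosen after seeing the data, 34 members were called at 96 h in growth media. For dim members such as RSAD2, BST2 and MX2, signal near background limits what a change at 24 h or 48 h can show.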
